A study of Homo sapiens with 8 samples.

Results

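Keratins are the intermediate filament proteins of epithelial cells. They assemble only as pairs of a type I (acidic) and a type II (basic) chain, and the pairs mark cell layers: KRT5 with KRT14 in basal cells of the breast and skin, KRT8 with KRT18 in simple and luminal epithelium, and KRT6A or KRT6B with KRT16 and KRT17 in stressed or wounded epithelium. KRT15 is a further type I keratin of basal cells, and KRT7 is a type II keratin of simple and ductal epithelium. The 10 keratins KRT5, KRT14, KRT15, KRT17, KRT6A, KRT6B, KRT16, KRT7, KRT8 and KRT18 were chosen by symbol from the 58233 genes of the count table. All 10 were found, each as 1 row, and all 10 passed the filter on low counts in every comparison.

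The cells were MCF10A-Hras, a human breast epithelial line that carries the H-Ras oncogene, grown in medium with EGF, hydrocortisone, cholera toxin, insulin and horse serum. Control cells, labelled WT (control), and RBM6 KO cells were left untreated or were taken 12 h after 5 Gy of X-rays (IR), and mRNA was sequenced from 2 biological replicates of each of the 4 groups. The study describes the knockouts as CRISPR clones and names clone KO1 for the sequenced cells, so genotype and 1 clone cannot be told apart. RBM6 encodes an RNA-binding splicing regulator, and the study asked how its loss changes gene expression before and after DNA damage.

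The libraries held 15355281 to 29832009 counts on genes, and a count of 0 allows up to 3 counts, which is 0.0965 to 0.204 normalised CPM, the library-scaled unit used for all levels here. RBM6 mRNA was at 66.8 and 68.7 CPM in untreated control cells and at 61.5 and 63.1 CPM in untreated RBM6-KO cells (log2 fold change -0.14, SE 0.15, adjusted p = 0.712). After IR it was at 54.4 and 48.9 CPM in control and at 43.96 and 33.85 CPM in RBM6-KO cells (log2 -0.40, SE 0.20, adjusted p = 0.535). The RBM6-KO libraries thus lay below the control libraries at both treatments, and neither difference passed the test. For its knockout clones the study reports frame-shift deletions with an early stop codon, and it checked the protein by western blot. Counts of RBM6 mRNA do not measure the protein. CDKN1A, the p53 target that encodes the cell cycle inhibitor p21, was at 448 and 469 CPM in untreated control cells against 1498 and 1718 CPM after IR, and at 382 and 402 CPM against 1605 and 1609 CPM in RBM6-KO cells. The leukocyte markers summed to at most 0.196 CPM in any library, with CD3E at 0 in all 8. Of the luminal markers, KRT19 had 0 to 3 counts in any library and ESR1, PGR, ELF5 and KIT were also under 1 CPM. Others of that list were present besides KRT7, KRT8 and KRT18, with GATA3 at 11.3 to 17.5, FOXA1 at 2.15 to 5.08, EPCAM at 5.28 to 26.7 and CD24 at 5.84 to 26.1 CPM, and the 14 luminal markers summed to 1552 to 3100 CPM, while the basal marker TP63 stood at 15.8 to 46.7 CPM.

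The keratin genes resemble each other in sequence, which bears on how reads are shared between them. The stretches below come from the hg38 genome, lie in the coding part of the first exon on the minus strand of chromosome 17 (plus strand of chromosome 12 for KRT18), and hold the start of the helical rod, the helix initiation motif of type I keratins. They are shown because 4 of the 5 type I keratins carry the same 47 bases at this site. Capitals mark the 7 bases at which KRT18 differs from the others.
KRT14 (chr17:41586437-41586483): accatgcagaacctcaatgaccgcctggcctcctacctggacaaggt
KRT15 (chr17:41518460-41518506): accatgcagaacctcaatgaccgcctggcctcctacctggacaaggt
KRT16 (chr17:41612285-41612331): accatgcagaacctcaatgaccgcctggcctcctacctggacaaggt
KRT17 (chr17:41624205-41624251): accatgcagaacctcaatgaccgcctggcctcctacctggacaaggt
KRT18 (chr12:52949420-52949466): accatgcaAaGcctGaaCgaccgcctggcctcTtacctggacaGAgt

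The reads were 150 bases long, so a shared stretch matters for the counts where it reaches that length. KRT14 and KRT16 share a run of 158 identical bases in exon 1 (chr17:41586368-41586525 and chr17:41612216-41612373), which holds the 47 bases above. Only 9 of the 1487 windows of 150 bases in the KRT14 transcript, 0.605%, occur in KRT16. KRT6A and KRT6B share the longest identical run found between the 2 genes, 269 bases of coding exon 1 that is given here because it limits what can be said of KRT6B.
KRT6A (chr12:52492773-52493041, minus strand) and KRT6B (chr12:52451663-52451931, minus strand): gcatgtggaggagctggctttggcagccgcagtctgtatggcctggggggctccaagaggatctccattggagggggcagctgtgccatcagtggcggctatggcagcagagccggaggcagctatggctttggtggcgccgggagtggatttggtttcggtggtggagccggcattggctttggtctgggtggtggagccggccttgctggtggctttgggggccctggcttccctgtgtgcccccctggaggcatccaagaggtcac

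Of the 150-base windows of the KRT6A transcript, as of each transcript here the canonical one, 9.26% occur in the copies KRT6B or KRT6C, and of those of KRT6B, 12.7% occur in KRT6A or KRT6C. KRT6C itself had 1 to 11 counts per library. In the canonical transcripts of KRT5, KRT15, KRT17, KRT7 and KRT8 no window occurred in another keratin or a keratin pseudogene. Over all annotated exons merged, KRT5, KRT15 and KRT17 stayed at 0 such windows, while 262 of 3850 windows of KRT7 (6.81%) and 590 of 6732 of KRT8 (8.76%) were also annotated to another keratin gene. The annotated KRT8 and KRT18 genes lie on opposite strands and overlap by 1084 bases, and 25.6% of the windows of the canonical KRT18 transcript fall in sequence that is also annotated to KRT8. KRT7 overlaps the antisense gene KRT7-AS by 2401 bases and shares 2887 bases of its strand with KRT86. How the counting treated strand and shared reads is not given in the sources used here, so counts of these overlapping genes are uncertain to that extent.

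In normalised CPM per kilobase of merged exons, KRT7 had the highest mean over the 8 libraries, 435 ± 109 (SD, n = 8), followed by KRT6A at 381 ± 46.5 and KRT5 at 298 ± 47.8. These 3 type II keratins overlapped in their ranges over libraries. KRT17 (103 ± 21.1) and KRT18 (85.3 ± 28.7) came next and overlapped each other, and both lay below KRT5 in every library. KRT8 (37.6 ± 7.59) and KRT14 (24.4 ± 11.7) also overlapped. KRT6B at 5.58 ± 1.40, KRT16 at 1.82 ± 0.401 and KRT15 at 1.33 ± 0.498 were the lowest, and KRT16 and KRT15 overlapped. As summed levels per kilobase, the 5 type II keratins summed to 988 to 1469 and the 5 type I keratins to 151 to 282, and the ratio of type II to type I was 5.49 on average, between 3.95 and 6.61. KRT6A thus stood far above its usual partner KRT16, with a ratio of 137 to 276. With the length of the longest coding transcript in place of merged exons KRT5 came before KRT6A, at 551 and 483. The overlaps changed as well. KRT7 at 722 to 1416 then lay above KRT6A at 414 to 589 and still overlapped KRT5 at 472 to 724. KRT8 at 80.1 to 135 lay above KRT14 at 16.8 to 64.5 and overlapped KRT18 at 86.4 to 234.

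**Figure D1:**
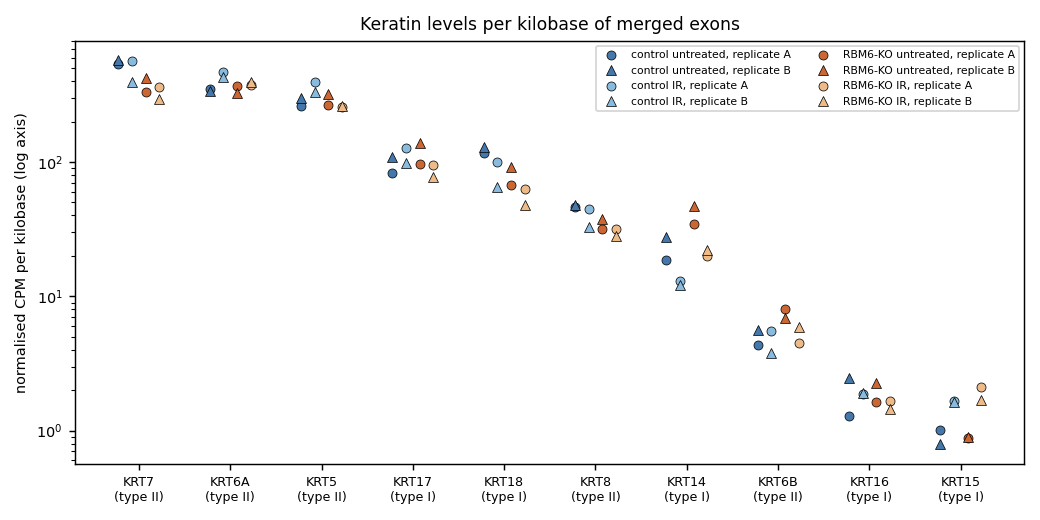
Normalised CPM per kilobase of merged exons on a log axis for the 10 keratins, ordered by their mean over 8 libraries. Colours stand for the 4 groups, circles for replicate A and triangles for replicate B. KRT7, KRT6A and KRT5 lie between 256 and 575, and KRT16 and KRT15 lie between 0.790 and 2.49.

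Of the 10 keratins, KRT14 was higher and KRT7 and KRT18 were lower in untreated RBM6-KO cells, KRT14 fell after IR in both genotypes, and KRT15 rose after IR in RBM6-KO cells. A gene was said to pass the test at an adjusted p under 0.05 and was called where it also changed at least 2-fold. By that rule none was called between untreated genotypes, where 3.12% of all genes tested were called. By the adjusted p alone 1 was higher in RBM6-KO cells and 2 were lower, beside 2.38% and 3.73% of all genes in these directions and 6.12% in either. In the same comparison 5 had an unadjusted p under 0.05 in edgeR, and DESeq2 called 0 at 2-fold and 4 by the adjusted p alone. After IR, 0 of 10 were called (1.17% of all genes) and 0 passed the adjusted p alone (1.21%), with 4 at an unadjusted p under 0.05 in edgeR and 1 passing in DESeq2. After IR in control cells 0 were called (3.59% of all genes) and 1, KRT14, passed the adjusted p alone (5.72%), with 3 at an unadjusted p under 0.05. DESeq2 likewise called 0 there and passed 1. In RBM6-KO cells 1, KRT15, was called after IR (3.11%) and 2 passed the adjusted p alone (5.67%). The interaction passed for 0 of 10 keratins in edgeR and in DESeq2, with 2 at an unadjusted p under 0.05, and for 0 of 16549 genes, 1.85% of which had an unadjusted p under 0.05. The median log2 difference of the 10 keratins was 0.000152 and -0.31 for genotype without and with IR and -0.07 and -0.28 for IR in control and RBM6-KO cells, and over all genes these medians lay between -0.01 and 0.02.

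KRT14 passed the test for genotype, in untreated cells, and for IR, in both genotypes. KRT14, the basal type I keratin that pairs with KRT5, was at 42.4 and 62.8 CPM in untreated control, 29.2 and 27.5 CPM in irradiated control, 78.0 and 105 CPM in untreated RBM6-KO and 45.2 and 49.9 CPM in irradiated RBM6-KO cells. The RBM6-KO libraries lay above both control libraries at the same treatment. The IR libraries lay below both untreated libraries of the same genotype, so none of these 4 pairs of groups overlapped. Between genotypes, 23.9% of all genes tested in untreated cells and 20.2% after IR were separated in the lower direction. The shares for the higher direction and for IR were not counted, here or for the keratins below. In untreated cells KRT14 was 1.72-fold higher in RBM6-KO (log2 fold change 0.78, SE 0.19, adjusted p = 0.0156, edgeR's quasi-likelihood test). After IR the difference was of similar size at 1.69-fold (log2 0.75, SE 0.17) but did not pass the test (adjusted p = 0.116). It did pass in 4 of 9 alternative settings, namely with DESeq2 (adjusted p = 0.0414), without a filter on low counts (0.0344), with an offset for GC content (0.0172) and with the replicate letter as a block (0.000562), although the letters were not taken to pair the samples. The fall after IR was 1.87-fold in control cells (log2 -0.90, SE 0.22, adjusted p = 0.0359) and 1.95-fold in RBM6-KO cells (log2 -0.96, SE 0.18, adjusted p = 0.0245). The interaction of genotype and IR, which tests whether the 2 IR responses differ, was -0.05 (SE 0.29).

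The KRT14 results rest on few libraries. Without control untreated replicate A, the lower of that pair, the genotype difference in untreated cells was 0.53 on the log2 scale (adjusted p = 0.210), and with all 8 libraries in 1 fit it was 0.80 (adjusted p = 0.0684). Without the untreated replicate B, the fall after IR was -0.59 in control cells (adjusted p = 0.506) and -0.72 in RBM6-KO cells (adjusted p = 0.120), and the direction stayed the same.

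**Figure D2:**
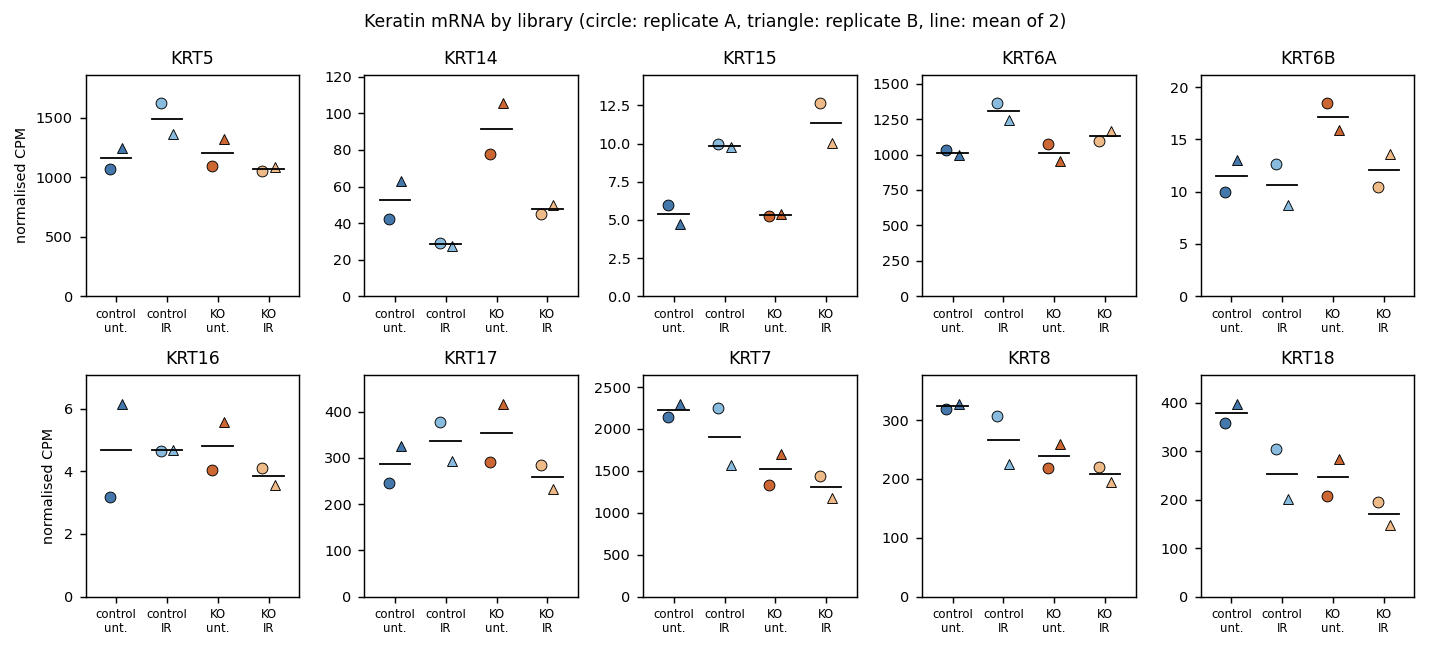
Normalised CPM of the 10 keratins in each library, each panel starting at 0, with circles for replicate A, triangles for replicate B and a line at the mean of 2. KRT14 is at 27.5 to 29.2 in control cells after IR and at 78.0 to 105 in untreated RBM6-KO cells, and KRT15 is at 4.71 to 6.01 in the untreated libraries and at 9.77 to 12.6 after IR.

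KRT15, the other basal type I keratin, had a low level that differed by treatment and in the direction opposite to KRT14. It was at 6.01 and 4.71 CPM in untreated control, 9.96 and 9.77 CPM in irradiated control, 5.23 and 5.37 CPM in untreated RBM6-KO and 12.6 and 10.03 CPM in irradiated RBM6-KO cells. All 4 irradiated libraries lay above all 4 untreated ones. The genotypes overlapped in untreated cells. After IR both RBM6-KO libraries lay above both control libraries, the closest at 10.03 against 9.96 CPM. In RBM6-KO cells KRT15 rose 2.11-fold after IR (log2 1.08, SE 0.23, adjusted p = 0.0337), and it passed the test in each of the 4 fits that left out 1 library (log2 0.92 to 1.25). In control cells the difference was 1.83-fold (log2 0.87, SE 0.26) and missed the threshold (adjusted p = 0.0658). The interaction was 0.21 (SE 0.31). The genotype difference was -0.03 (SE 0.27) in untreated cells and 0.21 after IR (SE 0.22, adjusted p = 0.856). These values rest on 79 to 304 counts per library.

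KRT5, the basal type II keratin, passed the test in no comparison. It was at 1073 and 1246 CPM in untreated control, 1621 and 1368 CPM in irradiated control, 1096 and 1318 CPM in untreated RBM6-KO and 1056 and 1088 CPM in irradiated RBM6-KO cells. The untreated genotypes overlapped (log2 0.04, SE 0.14), while after IR both RBM6-KO libraries lay below both control libraries (log2 -0.47, SE 0.16, adjusted p = 0.297). The IR difference was 0.36 (SE 0.18, adjusted p = 0.228) in control cells and -0.19 (SE 0.15, adjusted p = 0.424) in RBM6-KO cells. The interaction was -0.54 (SE 0.21), with an unadjusted p of 0.0283 and an adjusted p of 0.99998.

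The level of KRT5 relative to KRT14 therefore varied over groups. The ratio of KRT5 to KRT14 per kilobase was 13.8 and 10.8 in untreated control, 30.3 and 27.1 in irradiated control, 7.67 and 6.82 in untreated RBM6-KO and 12.7 and 11.9 in irradiated RBM6-KO cells. The ratio was lowest in both untreated RBM6-KO libraries and highest in both irradiated control libraries, and irradiated RBM6-KO cells lay within the range of untreated control cells.

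For the 3 simple keratins KRT7, KRT8 and KRT18, every RBM6-KO library lay below both control libraries of the same treatment, and in untreated cells KRT7 and KRT18 passed the test. With 2 libraries a group such a separation is common: both RBM6-KO libraries lay below both control libraries for 3 of the 10 keratins in untreated cells, beside 23.9% of all genes tested, and for 7 of the 10 after IR, where KRT5, KRT6A, KRT16 and KRT17 also lay lower, beside 20.2%. KRT18, the type I keratin of simple epithelium, was at 358 and 397 CPM in untreated control, 305 and 202 CPM in irradiated control, 208 and 284 CPM in untreated RBM6-KO and 194 and 147 CPM in irradiated RBM6-KO cells. The genotypes did not overlap at either treatment. KRT18 was 1.55-fold lower in untreated RBM6-KO cells (log2 -0.63, SE 0.15, adjusted p = 0.0175), and the difference after IR was -0.56 (SE 0.23, adjusted p = 0.437). The IR difference was -0.59 (SE 0.20, adjusted p = 0.0989) in control cells and -0.55 (SE 0.20, adjusted p = 0.106) in RBM6-KO cells, with no overlap within either genotype.

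KRT7, the simple and ductal type II keratin, was at 2142 and 2301 CPM in untreated control, 2246 and 1571 CPM in irradiated control, 1336 and 1697 CPM in untreated RBM6-KO and 1439 and 1174 CPM in irradiated RBM6-KO cells. It was 1.48-fold lower in untreated RBM6-KO cells (log2 -0.57, SE 0.15, adjusted p = 0.0265). After IR the difference was -0.54 (SE 0.21, adjusted p = 0.397), and the libraries again did not overlap. KRT8, the type II partner of KRT18, was at 320 and 328 CPM in untreated control, 307 and 225 CPM in irradiated control, 218 and 259 CPM in untreated RBM6-KO and 220.05 and 195 CPM in irradiated RBM6-KO cells. Its genotype difference was -0.46 in untreated cells (SE 0.14, adjusted p = 0.0626) and -0.35 after IR (SE 0.19, adjusted p = 0.591). The IR differences of KRT7 and KRT8 lay between -0.29 and -0.21 in both genotypes, and none passed the test.

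The 2 simple keratins that passed the test in untreated cells, without a 2-fold change, did not pass it in every fit. With all 8 libraries in 1 fit the adjusted p was 0.182 for KRT7 and 0.197 for KRT18, and with an offset for GC content it was 0.112 and 0.0595. Without control untreated replicate B, KRT7 was at -0.50 (adjusted p = 0.431) and KRT18 at -0.54 (adjusted p = 0.315), and without replicate A, KRT7 was at -0.62 (adjusted p = 0.112). In all of these fits both stayed lower in RBM6-KO.

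KRT7, KRT8 and KRT18 also varied together within groups: in each of the 4 groups the same replicate was the higher for all 3. This order was not particular to them. KRT17 and the hair keratins KRT81 and KRT86 had it too, while KRT5, KRT14, KRT15, KRT6A, KRT6B and KRT16 did not. Its share over all genes was not counted. For KRT7, KRT8 and KRT18 the gap, as a ratio, was widest in control cells after IR. There replicate A held 2246, 307 and 305 CPM and replicate B, the most deeply sequenced library, 1571, 225 and 202 CPM. The differences that use this group depended on which of its 2 libraries was kept. Without that replicate B, the genotype difference after IR was -0.78 for KRT7 and -0.84 for KRT18. Without replicate A it was -0.27 and -0.25. Without replicate A, the IR difference in control cells was -0.49 for KRT7, -0.52 for KRT8 and -0.90 for KRT18. Without replicate B it was 0.00332, -0.09 and -0.32. KRT7-AS, the antisense gene over KRT7, was also lower in untreated RBM6-KO cells, at 24.2 and 21.5 CPM against 40.1 and 42.3 CPM (log2 -0.86, SE 0.17, adjusted p = 0.00471). Its share in the KRT7 counts was not tested. Counts on KRT8 pseudogenes were 4.62 to 7.14% of the KRT8 count, and those on KRT18 pseudogenes 3.12 to 4.43% of the KRT18 count.

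Among the 4 keratins of stressed epithelium, KRT6A, KRT6B, KRT16 and KRT17, none passed the test in any comparison. KRT6A, a type II keratin of hyperproliferative and wounded epithelium, was at 1029 and 995 CPM in untreated control, 1360 and 1247 CPM in irradiated control, 1072 and 955 CPM in untreated RBM6-KO and 1097 and 1162 CPM in irradiated RBM6-KO cells. The untreated genotypes overlapped (log2 -0.01, SE 0.14), and the irradiated libraries lay above the untreated ones in both genotypes, by 0.36 in control cells (SE 0.16, adjusted p = 0.199) and by 0.14 in RBM6-KO cells (SE 0.14, adjusted p = 0.537).

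KRT17, a type I keratin of basal and wounded epithelium, was at 247 and 327 CPM in untreated control, 379 and 294 CPM in irradiated control, 291 and 417 CPM in untreated RBM6-KO and 285 and 232 CPM in irradiated RBM6-KO cells. Untreated genotypes overlapped, and after IR both RBM6-KO libraries lay below the lower control library (log2 -0.37, SE 0.19, adjusted p = 0.553). Its IR difference was 0.22 in control cells (SE 0.19) and -0.47 in RBM6-KO cells (SE 0.19, adjusted p = 0.143), and the interaction was -0.68 (SE 0.30, unadjusted p = 0.0436, adjusted p = 0.99998).

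KRT6B, the close copy of KRT6A, was at 9.93 and 13.0 CPM in untreated control, 12.6 and 8.71 CPM in irradiated control, 18.4 and 15.9 CPM in untreated RBM6-KO and 10.4 and 13.6 CPM in irradiated RBM6-KO cells. Untreated RBM6-KO cells lay above every other group, but the genotype difference of 0.57 (SE 0.22) missed the threshold (adjusted p = 0.148), though it passed with the GC offset (log2 0.71, adjusted p = 0.0388). It had 162 to 328 counts per library beside 14050 to 38777 for KRT6A. The sum of KRT6A, KRT6B and KRT6C, made up mostly of KRT6A counts, differed by -0.00268 on the log2 scale between untreated genotypes. KRT16, the type I partner of KRT6A, was at 3.19 and 6.16 CPM in untreated control, 4.66 and 4.69 CPM in irradiated control, 4.05 and 5.57 CPM in untreated RBM6-KO and 4.12 and 3.57 CPM in irradiated RBM6-KO cells. The KRT16 groups overlapped except for the irradiated genotypes (log2 -0.28, SE 0.25, adjusted p = 0.817), and with 52 to 146 counts per library the standard errors of its 4 differences between groups were 0.25 to 0.33.

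**Figure D3:**
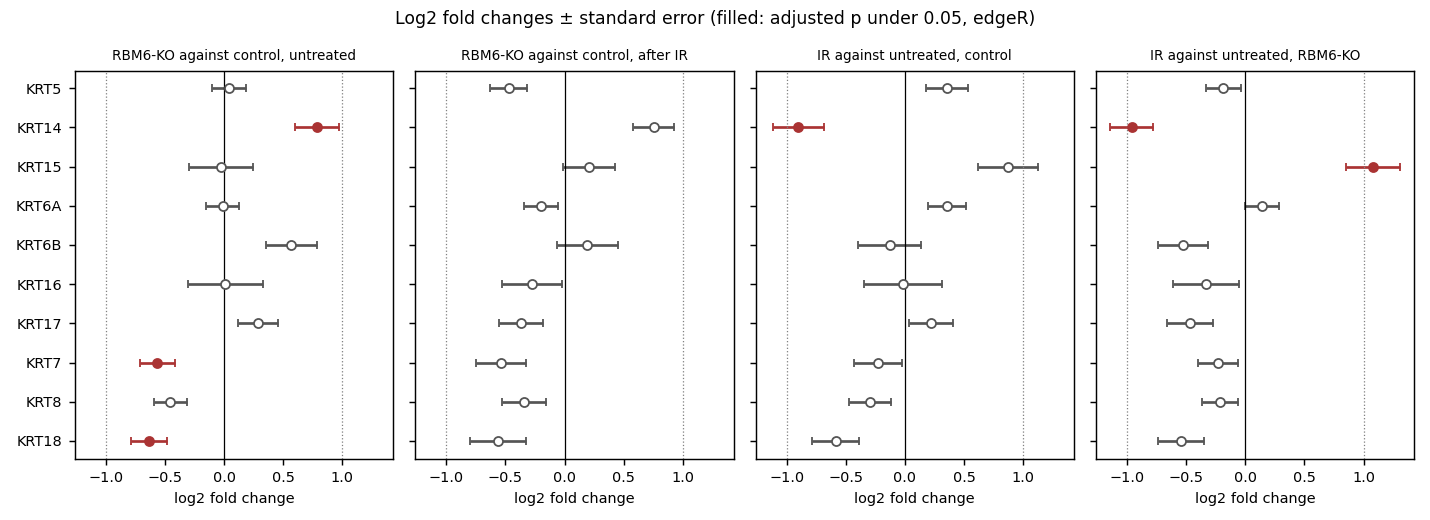
Log2 fold changes of the 10 keratins with their standard errors in 4 comparisons, with filled points where the edgeR adjusted p was under 0.05 and dotted lines at a 2-fold change. KRT14 is at 0.78 and 0.75 for genotype and at -0.90 and -0.96 for IR, and only KRT15 in RBM6-KO cells passes both the p-value and the 2-fold line.

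The keratin genes lie in 2 clusters, type II genes with KRT18 on chromosome 12 and the other type I genes on chromosome 17. Of the 45 other protein-coding keratin genes, 25 had no count in any library and 41 averaged under 1 CPM. KRT81, a type II hair keratin gene that is also expressed in breast cell lines, took 0.373 to 0.997% of all counts on genes, beside 0.404 to 0.616% for the 10 keratins together, as shares of counts and not levels per length. It was at 9071 and 10013 CPM in untreated control, 7277 and 4944 CPM in irradiated control, 4725 and 7062 CPM in untreated RBM6-KO and 4662 and 3756 CPM in irradiated RBM6-KO cells. It was lower in untreated RBM6-KO cells (log2 -0.71, SE 0.17, adjusted p = 0.0160), as was KRT80, an epithelial type II keratin, which fell from 24.5 and 25.2 CPM to 3.09 and 4.89 CPM (log2 -2.66, SE 0.24, adjusted p = 2.1e-06). After IR KRT80 was at 22.1 and 21.0 CPM in control cells and 4.02 and 5.14 CPM in RBM6-KO cells (log2 -2.22, SE 0.23, adjusted p = 0.0111). KRT80 was the only other keratin called, and in these 2 genotype comparisons alone. KRT86, a hair keratin beside KRT7, was at -0.62 (adjusted p = 0.0736) between untreated genotypes, and KRT10, the type I keratin of upper epidermal layers, at -0.03 (adjusted p = 0.964). Along chromosome 12, KRT80, KRT7, KRT86 and KRT81 are neighbours and were all below 0 in both genotype comparisons. The annotated KRT86 gene overlaps the end of KRT7 and spans all of KRT81, which lies on the opposite strand. KRT86 averaged 19.6 CPM beside 6439 CPM for KRT81, and the share of KRT7 or KRT81 reads in its count was not tested. KRT81 is followed by KRT83, KRT6B, KRT6A and KRT5, which lay between -0.01 and 0.65 in untreated cells. After IR, KRT83 and KRT6B were at 0.03 and 0.19, but KRT6A and KRT5 were at -0.20 and -0.47. KRT8 and KRT18 come next and were below 0 in both comparisons. KRT5 after IR thus lay lower than KRT8, which was at -0.35. On chromosome 17 KRT14 lies between KRT15 and KRT16, at -0.03 and 0.01 in untreated cells.

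**Figure D4:**
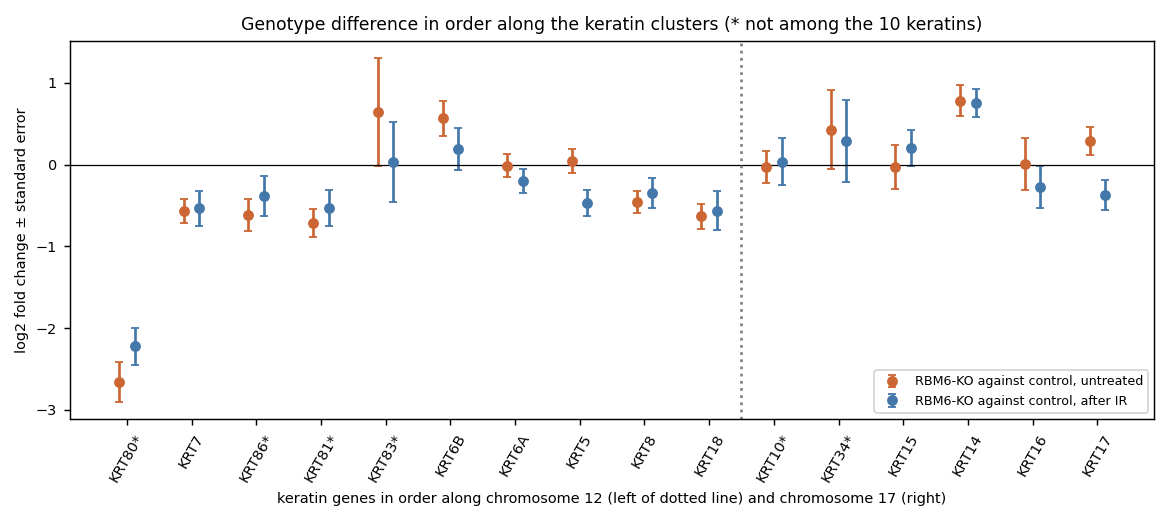
Log2 fold change of RBM6-KO against control, with standard errors, for the 16 keratin genes tested in both genotype comparisons, in their order along chromosomes 12 and 17 and not to scale. KRT80 is at -2.66 and -2.22, KRT7, KRT86 and KRT81 lie between -0.71 and -0.38, and KRT14 stands at 0.78 and 0.75 between neighbours that lie nearer to 0.

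Keratin filaments are anchored at desmosomes, which join cells to each other, and at hemidesmosomes, which join basal cells to the basement membrane. Of all genes tested, 3.12% were called between untreated and 1.17% between irradiated genotypes, and 3.59% and 3.11% after IR in control and RBM6-KO cells. By the adjusted p alone these shares were 6.12%, 1.21%, 5.72% and 5.67%. They stand beside each gene list from here on. Of 15 desmosome genes 11 were tested, and PPL, the cytoplasmic linker periplakin, was called lower in RBM6-KO cells in both genotype comparisons (log2 -1.50, adjusted p = 0.0011 untreated, and -1.84, adjusted p = 0.0151 after IR). No desmosome gene was called after IR. By the adjusted p alone the desmosomal cadherins DSG3 (log2 0.77) and DSC3 (0.97) rose in control cells, and in RBM6-KO cells PERP rose (0.72) and EVPL fell (-0.64). Of 9 hemidesmosome genes, all tested, none was called in any comparison. By the adjusted p alone COL17A1 (log2 0.65) and LAMA3 (0.75) rose after IR in control cells, and the plakins PLEC (-0.67) and DST (-0.82) fell after IR in RBM6-KO cells. The smallest p of that list was 0.00454 for DST between untreated genotypes (log2 0.49) and 0.0938 for ITGA6 after IR (-0.52), and neither passed adjustment.

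Of 20 transcription factors and other regulators of keratin genes 16 were tested. Between untreated genotypes FOS, a subunit of AP-1, was called lower in RBM6-KO cells (log2 -1.23, SE 0.18, adjusted p = 0.000338), and ZEB1, a repressor of epithelial genes, was called higher (1.05, SE 0.30, adjusted p = 0.0480). TFAP2A (-0.51), STAT3 (-0.55) and TRIM29 (-0.73) were lower by the adjusted p alone. None was called between irradiated genotypes, where FOS had the smallest p of the list (log2 -0.81, adjusted p = 0.0966). After IR, KLF4, a factor of epithelial differentiation, was called higher in control cells (log2 1.72, adjusted p = 0.0291), and FOS was called higher in RBM6-KO cells (1.22, adjusted p = 0.0141). By the adjusted p alone FOS rose in control cells (0.83), and FOSL1, another AP-1 subunit, fell in control cells (-0.65) and in RBM6-KO cells (-0.58). TP63, the master regulator of basal keratins, was at 0.92 after IR in control cells (adjusted p = 0.0644) and at 0.72 in RBM6-KO cells (adjusted p = 0.103), and its genotype differences were -0.14 and -0.32. Of 15 genes for keratin binding and turnover, EPPK1, which encodes the keratin-binding protein epiplakin, was called lower in RBM6-KO cells before IR (log2 -2.13, adjusted p = 0.000672) and after it (-2.30, adjusted p = 0.0458), FLG, which encodes the keratin-aggregating filaggrin, was called higher after IR in control cells (4.30, adjusted p = 0.00118), and SFN fell in RBM6-KO cells by the adjusted p alone (-0.82).

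Markers of cell types moved beside the genotype results. Of 14 luminal markers, 9 of which were tested, EPCAM, an epithelial adhesion protein, was called lower in RBM6-KO cells before IR (21.4 and 26.7 CPM against 6.58 and 7.47, log2 -1.79, adjusted p = 4.43e-05) and after it (-1.82, adjusted p = 0.0151), and CD24 was called lower in untreated cells (-1.38, adjusted p = 0.000766). None was called after IR within a genotype, where CD24 had the smallest p in control cells (log2 0.66, adjusted p = 0.0872) and in RBM6-KO cells (0.86, adjusted p = 0.0514). Of 10 basal markers KRT15 alone was called, after IR in RBM6-KO cells, and between untreated genotypes KRT14 was higher while TRIM29 and CDH3 were lower by the adjusted p alone. The 6 fibroblast markers summed to 80.9 to 108 CPM in control libraries and to 119 to 211 CPM in RBM6-KO libraries, of which DCN made up the most (log2 0.91, adjusted p = 0.00147 untreated, and 1.11, adjusted p = 0.0389 after IR), while COL1A2, COL3A1 and LUM were at or near 0. COL1A1 lay the other way, at 11.5 to 14.4 CPM in control libraries and 5.05 to 9.22 CPM in RBM6-KO libraries (log2 -0.74, adjusted p = 0.0864 untreated, and -1.17, adjusted p = 0.0612 after IR). After IR the median genotype difference of the 3 fibroblast markers tested was -0.70, that of PDGFRB (adjusted p = 0.660). PDGFRB was called higher after IR in control cells, from a mean of 0.180 to 1.40 CPM. The 3 endothelial markers summed to 1.25 to 2.46 CPM in control libraries and 3.37 to 6.32 CPM in RBM6-KO libraries, nearly all PECAM1. All libraries came from the cultured line MCF10A-Hras, so the list names do not say that fibroblasts or endothelial cells were present. The part of these marker genes in the keratin differences was not tested. In bulk RNA fewer cells with a marker and less RNA per cell cannot be told apart.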

How the data were processed

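The authors prepared TruSeq mRNA libraries from 8 cultures, sequenced paired reads of 150 bases, aligned them to hg38, with STAR and DESeq2 named in the submitters' processing notes, and deposited raw whole-number counts for each Ensembl gene, not normalized. The counting tool, annotation release and strand setting are not given in the sources used here. All 8 columns were used. Of 58233 gene IDs, 57392 matched GENCODE v44, and 0.145% of counts lay on IDs that did not match.

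The tests used edgeR 4.0.16 (quasi-likelihood F test, two-sided, TMM normalization, filterByExpr) and limma 3.58.1 under R 4.3.3, each comparison on its own 4 libraries and the interaction on all 8. P-values were adjusted by the Benjamini-Hochberg method over all genes tested, and a call needed an adjusted p under 0.05 and at least a 2-fold change. The standard error is the size of the log2 fold change divided by the square root of F. CPM are TMM-normalised, and values per kilobase use merged exons. Shared sequence was searched in windows of 150 bases of hg38 transcripts. The fit was also run on simulated data with known changes of at least 2-fold and the same spread for every gene. Most differences of the 10 keratins were smaller than 2-fold, so that run is not used as support for them. The replicates of a group differed by more than sampling noise (chi-square per degree of freedom 10.1 to 30.2), so none was counted as a duplicate, and p-values measure the spread between 2 cultures of a clone or line. Limits for a count of 0 cover counting error only. No batch or date is given in the labels, so none could be fitted.

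The 10 keratins and the gene lists were chosen with earlier results of these data known, and list counts stand beside all genes only as a description. Named genes were all 10 keratins, the 3 other keratins with the highest mean and any called, and, per list and comparison, called genes (at most 3 in each direction) or the gene with the smallest p, and genes of the lists that passed the adjusted p alone, which were added after their values were seen. The gene with the smallest p is not given for every list and comparison. Alternatives were DESeq2 1.42.0, DESeq2 size factors, upper-quartile normalization, other filters, a replicate block, all 8 libraries in 1 fit, a GC offset, near-identical copies summed, another gene length, and each library left out.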

Additional observations from a re-analysis of the deposited data

How the results depend on the processing

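The fall of KRT14 after IR passed the test in both genotypes in 9 of 9 alternative settings, as did the rise of KRT15 in RBM6-KO cells, and the higher KRT14 of untreated RBM6-KO cells passed in 8 of 9. The number of keratins past the adjusted p between untreated genotypes went from 3 to 0 with all 8 libraries in 1 fit, and the number called went from 0 to 3 by the adjusted p alone. After IR the number past the adjusted p between genotypes went from 0 to 1 with DESeq2, 2 without a filter, 6 with the replicate block and 1 with the GC offset. For IR in control cells it went from 1 to 3 without a filter and 2 with the GC offset, and the number called from 0 to 1 by the adjusted p alone. For IR in RBM6-KO cells the number called went from 1 to 2 by the adjusted p alone and with upper-quartile normalization. The ratio of KRT8 to KRT18 per kilobase was 0.461 with merged exons and 0.719 with the longest coding transcript. The causes were not tested.

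Leaving out 1 library gave 0 to 1 keratins called and 1 to 4 past the adjusted p between untreated genotypes, 0 called and 0 to 2 past after IR, 0 to 1 and 0 to 5 for IR in control cells, 0 to 2 and 1 to 4 for IR in RBM6-KO cells, and 0 for the interaction. These fits assume that the lone library varies like the other group.

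Signs turned only for differences that did not pass the test. Between untreated genotypes KRT6A came to 0.00246 with upper-quartile normalization, 0.00172 with all 8 libraries and 0.10 with the GC offset, and KRT15 to 0.0926 with the GC offset. The sum of KRT6A, KRT6B and KRT6C came to -0.00268 between untreated and -0.20 between irradiated genotypes. For IR it came to 0.35 in control cells and 0.13 in RBM6-KO cells. That sum is made up mostly of KRT6A counts, so its signs say nothing of KRT6B alone. KRT16 after IR in control cells came to 0.00436 with DESeq2, 0.0372 without a filter, 0.0367 with the replicate block and 0.19 with the GC offset. The KRT7 interaction came to -0.0146 without a filter and -0.00663 with at least 10 counts in every library. With 1 library left out, log2 differences between untreated genotypes ran from -0.0821 to 0.17 for KRT5, -0.18 to 0.15 for KRT15, -0.11 to 0.0820 for KRT6A and -0.38 to 0.58 for KRT16, and KRT6B between irradiated genotypes from -0.0683 to 0.46. For IR in control cells they ran from -0.39 to 0.12 for KRT6B, -0.42 to 0.55 for KRT16 and -0.49 to 0.00332 for KRT7. For the interaction they ran from -0.37 to 0.20 for KRT14, -0.88 to 0.0804 for KRT16, -0.20 to 0.28 for KRT7, -0.0906 to 0.32 for KRT8 and -0.19 to 0.37 for KRT18.

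Replicates that share a letter did not deviate together in every pair of groups (correlations of -0.28 to 0.35 over 16549 genes, the highest between the irradiated groups), so the letters were not taken to pair the samples, and the replicate block moved a count of keratins by over 1.5 times only in the comparison of irradiated genotypes named above. There KRT14 came to 0.76 (adjusted p = 0.000562) and was higher in RBM6-KO, while KRT5 at -0.47 (0.0122), KRT17 at -0.37 (0.00731), KRT7 at -0.52 (0.00741), KRT8 at -0.33 (0.0184) and KRT18 at -0.55 (0.000705) were lower.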
